A study of Homo sapiens with 6 samples.

Results

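The nuclear-encoded subunits of respiratory complexes II, III and IV and of ATP synthase (complex V) were described in K562 cells, an established human erythroleukemia line. Members were the protein-coding genes of the deposited tables whose symbols are SDHA to SDHD, CYC1, or begin with UQCR, COX4 to COX8 or ATP5. The rule found 51 genes among 46427, with 4 in complex II, 10 in complex III, 17 in complex IV and 20 in complex V. The mitochondrially encoded COX1, COX2 and COX3 are not among them. Cells of wild type genotype received 10 µM HR-19011, named in the series title as a squaramide derivative, or 0.1% DMSO as vehicle, and RNA was taken at 24 h from 3 libraries of each group. The DMSO content of the HR-19011 wells is not in the labels, which also leave unsaid if replicate libraries stem from independent cultures, and each p below therefore reflects only library-to-library spread, possibly technical. HRI, eIF2α and ATF4, an integrated stress response pathway, appear in the title of the series, and the question here was which respiratory subunit transcripts differed between the 2 groups.

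In the mitochondrial inner membrane, complex II passes electrons from succinate to ubiquinone, complex III passes them on to cytochrome c, and complex IV hands them to oxygen. Complexes III and IV pump protons while doing so, and complex V lets the protons flow back to make ATP. All subunits of complex II are encoded in the nucleus, whereas complexes III, IV and V each combine nuclear subunits with a few encoded by mitochondrial DNA. Several nuclear subunits exist as pairs of genes, a widely expressed form and a form of muscle, lung or testis.

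The values were FPKM per gene, which scale reads to transcript length and library size, so levels can be compared between genes. They come without read counts, and the depth behind them is unknown. Summed FPKM per library was 456639 to 467595 in vehicle and 420661 to 427819 in HR-19011, and transcripts of the mitochondrial genome took 19.98% to 21.0% and 13.9% to 14.4% of it. All 7 erythroid markers were present, with a summed level of 8629 to 8799 FPKM in vehicle and 3515 to 3699 in HR-19011. Of 18 markers of T, B, monocytic, fibroblast and endothelial cells, CD3D alone had a mean of at least 1 FPKM, at 6.08 to 9.09 in vehicle and 11.6 to 12.1 in HR-19011. The summed T cell level was 6.33 to 9.28 FPKM in vehicle and 11.8 to 12.5 in HR-19011, with CD2 listed at 0 in every library, and the sums of the other 4 lists were at most 1.23 FPKM. Whether these marker differences bear on the subunit values was not tested. In such bulk RNA, fewer cells of a kind and less RNA per cell cannot be told apart.

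Most subunit transcripts were lower after HR-19011. Of the 51 members, 44 passed the filter (6-library mean of 1 FPKM or more) and were tested, and 38 of these fell, 1 rose and 5 were not called (limma, Benjamini-Hochberg adjusted p under 0.05 over all 11856 tested genes). Over all tested genes 84.4% were called, 38% as lower and 46.4% as higher. The values of the 2 groups did not overlap, with HR-19011 below vehicle, in 38 of the 44 members and in 38.3% of all tested genes. These 38 are not all the genes called lower: SDHC was called lower but overlapped, and UQCRB did not overlap but was not called. Most members that fell did so by less than 2-fold: their ratio of vehicle to HR-19011 mean FPKM ran from 1.11 to 2.39, with a median of 1.48. The median log2 fold change, on the log2(FPKM + 1) scale used throughout, was -0.51 over the 44 members and 0.07 over all tested genes. Another scaling of the libraries moves both: after TMM scaling the median of all tested genes shifted by -0.21, and members lay below it by -0.61, against -0.58 as deposited and -0.37 after quantile normalization. Replicates were close, with a median coefficient of variation of 2.45% in vehicle and 2.46% in HR-19011.

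**Figure D1:**
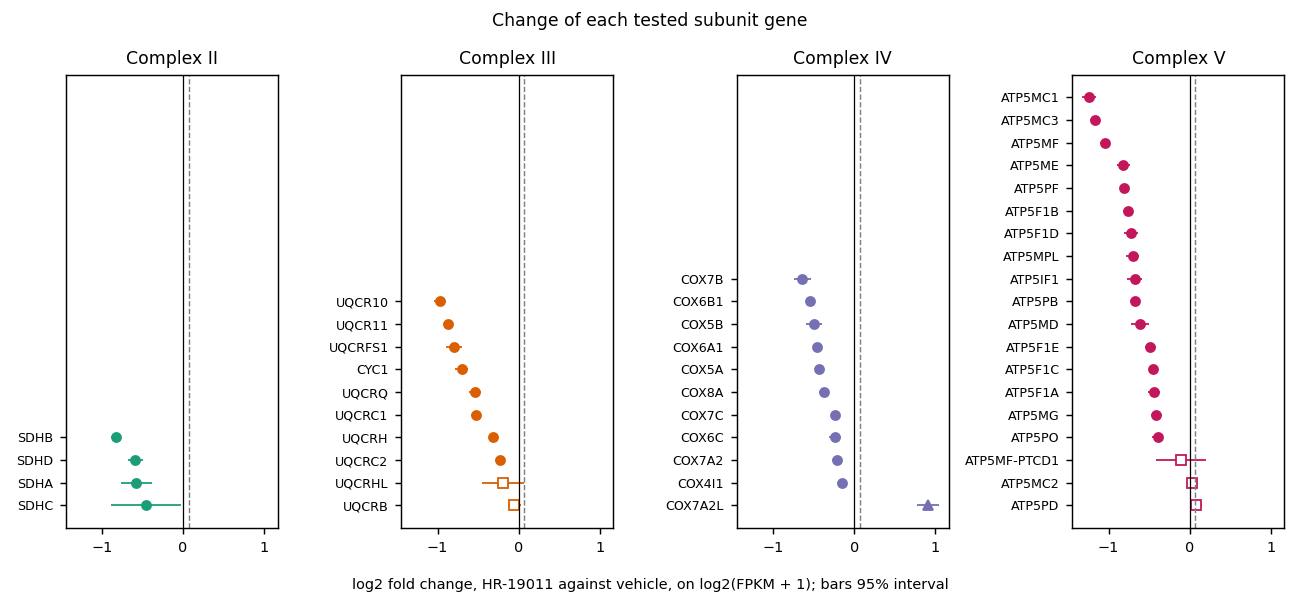
Log2 fold change of each of the 44 tested subunit genes, HR-19011 against vehicle, on log2(FPKM + 1), with 95% intervals, 1 panel per complex. Filled circles are genes called lower, the triangle is COX7A2L, called higher, open squares were not called, and the dashed line is the median of all tested genes at 0.07; the squares of ATP5MC2 and ATP5PD lie near 0 here, were called lower after TMM scaling, and were called higher after TPM conversion and quantile normalization.

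The median log2 fold change was -0.58 in complex II, -0.53 in complex III, -0.38 in complex IV and -0.68 in complex V. These medians are descriptions without a test, since subunits are not replicates. Summed over tested members, complex V had the most RNA, going from 3909 ± 3.56 FPKM in vehicle to 2561 ± 12.03 under HR-19011 (SD, n = 3). Complex IV went from 2253 ± 18.3 to 1805 ± 15.7 FPKM, complex III from 1260 ± 15.6 to 919.9 ± 4.37, and complex II from 332.9 ± 14.6 to 204.3 ± 4.94. The whole group took 1.66% to 1.70% of summed FPKM in vehicle libraries and 1.28% to 1.30% in HR-19011 libraries.

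**Figure D2:**
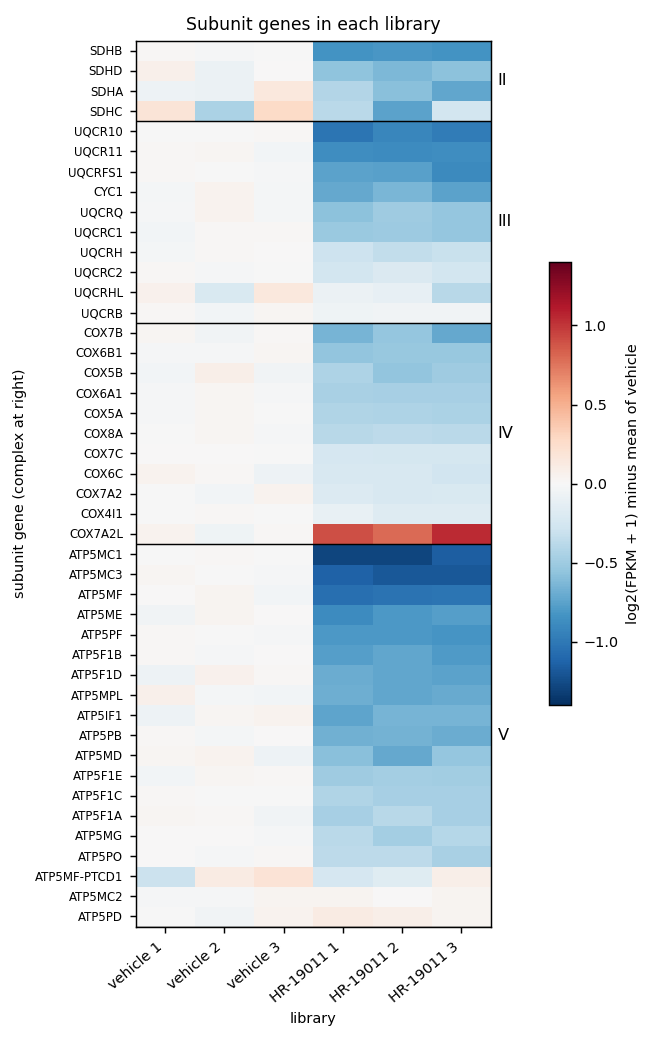
Level of each tested subunit gene in each library, as log2(FPKM + 1) minus the mean of the 3 vehicle libraries (blue lower, red higher), with complexes II to V from top to bottom. The HR-19011 columns are blue for most genes, red for COX7A2L, and pale for UQCRB, ATP5MC2 and ATP5PD, all called lower after TMM scaling, while TPM conversion and quantile normalization called ATP5MC2 and ATP5PD higher and quantile normalization called UQCRB lower; SDHC and ATP5MF-PTCD1 vary within groups.

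Promoter sequence is shown for a few members. RefSeq promoters on GRCh38.p14, from 250 bases before to 50 after a gene's start, were matched for 38 members, 34 of them tested. They were searched on both strands for 5 short motifs: GCGCATGC, the core of the site of NRF1, a factor known to bind respiratory gene promoters; CCGGAAGT, the site of ETS factors such as GABP; AAGATGGC, of YY1; TGATGNAA, a composite C/EBP and ATF element; and CACGTG, the E-box. The NRF1 core was found in 8 of the 34 tested members (23.5%) and in 3.68% of 27305 genes with a promoter in the same table. The ETS motif was in 10 (29.4%) against 4.95% of genes, and the YY1 motif in 5 (14.7%) against 3.52%. The E-box was in 4 (11.8%) against 8.77%, and the composite element in 0 of 34 against 4.46%. Of the 31 matched members called lower, 7 held the NRF1 core, 9 the ETS motif, 5 the YY1 motif, 4 the E-box and 0 the composite element. The 27305 genes include genes that were not tested here. Whether any motif goes with the fall was not tested. NRF1 matches on both strands can overlap each other. Such matches describe letters only, and an absent match says only that the letters are not in this window. The sequences below give the 250 bases before the start, 5′ to 3′ on the gene's strand, with motif matches in capitals.

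Complex II, succinate dehydrogenase, fell in all 4 subunits, beside 38% called lower among all tested genes. SDHB, the iron-sulfur subunit (chromosome 1, 17018722 to 17054032, GRCh38), was at 169, 165 and 166 FPKM in vehicle, against 92.5, 94.0 and 92.6 with the compound. It changed by -0.83 on the log2 scale (SE 0.0237, limma adjusted p = 3.22e-09). SDHD, a membrane anchor (chromosome 11, 112086873 to 112095794), was at 99.1, 89.1 and 94.8 FPKM and then at 63.5, 60.7 and 62.9. SDHA, the flavin-binding catalytic subunit, was at 45.5, 45.1 and 53.1 FPKM and then at 35.6, 31.5 and 28.5. For these 3 genes the groups did not overlap, and SDHD and SDHA had log2 fold changes of -0.59 and -0.57. SDHC, the other anchor, did overlap, at 26.9, 17.0 and 28.6 FPKM in vehicle and 18.0, 13.7 and 19.5 in HR-19011. Its fall of 1.42-fold (log2 fold change -0.46, SE 0.188, adjusted p = 0.0456 in limma) was lost in 8 of 16 alternatives, with adjusted p up to 0.159, and without any 1 of 4 libraries. Those 4 were vehicle 1 (adjusted p = 0.146), vehicle 3 (0.151), HR-19011 1 (0.0624) and HR-19011 2 (0.159). The SDHD promoter (chr11:112086623-112086872, plus strand) holds the NRF1 core on both strands as 1 palindrome, and an ETS match on the reverse strand.
SDHD: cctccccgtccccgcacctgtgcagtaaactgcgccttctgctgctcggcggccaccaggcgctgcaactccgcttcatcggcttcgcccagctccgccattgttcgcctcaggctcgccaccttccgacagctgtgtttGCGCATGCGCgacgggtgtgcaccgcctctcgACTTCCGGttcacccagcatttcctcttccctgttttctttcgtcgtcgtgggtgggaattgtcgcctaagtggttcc

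In complex III, the 4 catalytic and core subunits all fell, as did 4 of 6 small subunits, beside 38% called lower among all tested genes. UQCRFS1, the Rieske iron-sulfur protein, was at 39.9, 39.3 and 39.1 FPKM in vehicle and 23.1, 23.0 and 20.8 under HR-19011, changing by -0.80 (SE 0.0425). CYC1, cytochrome c1, fell from 188 ± 5.11 to 115 ± 4.44 FPKM (SD, n = 3). The core proteins UQCRC1 and UQCRC2, which face the matrix, fell 1.44-fold and 1.18-fold. All 4 genes were below vehicle in every HR-19011 library. Among the small subunits, UQCR10 (chromosome 22, 29767369 to 29770413) was at 57.8, 57.8 and 59.1 FPKM and then at 28.2, 30.4 and 29.0, the largest change of the complex at -0.97 (SE 0.0338, adjusted p = 1.06e-08 in limma). UQCR11, another small membrane subunit, was at 64.5, 64.8 and 61.8 FPKM and then at 34.5, 34.3 and 34.3. Both sat well below vehicle in all treated libraries, and UQCRQ, a further small subunit, fell 1.46-fold. UQCRH, the acidic hinge protein and the highest gene of the complex, was at 594, 612 and 607 FPKM and then at 492, 476 and 489. Its change was modest, at -0.32 (SE 0.0236). UQCRB, a small subunit next to the ubiquinone site, was at 14.8, 14.2 and 14.9 FPKM and then at 14.0, 14.1 and 14.1. These groups lie close without overlapping, and the difference was not called (log2 fold change -0.05, 95% interval -0.13 to 0.02, adjusted p = 0.174 in limma); it became 0.065 after conversion to TPM, not called, and was called lower after TMM scaling (-0.28) and quantile normalization (-0.09). UQCRHL, a retrocopy of UQCRH whose reads are hard to separate from it, was at 2.39, 1.79 and 2.59 FPKM and then at 2.06, 2.00 and 1.48, which overlap and were not called (-0.19, adjusted p = 0.136 in limma). It was called lower after TMM scaling (-0.35), after quantile normalization (-0.55) and without vehicle 2 (adjusted p = 0.0260 in limma).

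Complex IV, cytochrome c oxidase, had 11 tested members, of which 10 fell and 1 rose, beside 38% lower and 46.4% higher among all tested genes. COX7B, a small membrane subunit (chromosome X, 77899468 to 77907376), was at 47.9, 45.2 and 47.5 FPKM in vehicle and 29.4, 31.7 and 28.1 under HR-19011, changing by -0.64 (SE 0.0468). COX6B1, which faces the intermembrane space, was at 333, 332 and 342 FPKM and then at 229, 231 and 231. COX5B, a matrix-side subunit that binds zinc, was at 179, 195 and 178 FPKM and then at 136, 125 and 130. All 3 were lower in each treated library, by 1.58-fold, 1.46-fold and 1.41-fold. COX6A1 was at 334, 345 and 335 FPKM and then at 247, 245 and 245. COX8A was at 344, 353 and 343 FPKM and then at 264, 268 and 267. These widely expressed isoforms changed by -0.46 and -0.38, and COX5A, the other matrix-side subunit, by -0.43. The smallest changes were those of COX7C (-0.24), COX6C (-0.24), COX7A2 and COX4I1, and COX6C was no longer called after quantile normalization. COX7A2 was at 127, 124 and 132 FPKM and then at 112, 109 and 110, a change of -0.21 that also missed the threshold after that normalization (-0.06, adjusted p = 0.058 in limma). COX4I1, the largest nuclear subunit and an early-assembling one, was at 365, 370 and 364 FPKM and then at 340, 324 and 322. Its fall of 1.11-fold (log2 fold change -0.16, SE 0.0265, adjusted p = 0.000456 in limma) missed the threshold after conversion to TPM, at -0.03 (adjusted p = 0.301).

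COX7A2L went the other way. It encodes SCAF1, a relative of COX7A2 known to bind complex III to complex IV in supercomplexes (chromosome 2, 42335559 to 42368957). It was at 45.8, 42.4 and 44.9 FPKM in vehicle and at 83.8, 77.6 and 92.2 in HR-19011, so every treated library lay far above every vehicle library. The rise was 1.91-fold (log2 fold change 0.91, SE 0.0590, adjusted p = 5.94e-07 in limma), and it stayed called in all 16 alternatives, between 0.67 and 1.07. Its share of the summed FPKM of COX7A2 and COX7A2L was 26.5%, 25.4% and 25.4% in vehicle and 42.9%, 41.7% and 45.6% in HR-19011. With 3 against 3 libraries the exact two-sided permutation test cannot go below p = 0.1, which this share reached; that holds for all 5 shares and ratios given here, with an adjusted p = 0.1 for each. Of the tissue-restricted isoforms, COX4I2, COX6A2, COX7A1 and COX8C were listed at 0 in all 6 libraries, and COX7B2 was at most 0.275 FPKM. COX6B2, the testis form, was at 0.199, 0.273 and 0.254 FPKM in vehicle and 0.0695, 0.0571 and 0.0706 in HR-19011, below the filter and not tested there; without a filter it was called lower. Promoters are shown for COX5B, which fell, and COX7A2L, which rose. COX5B (chr2:97645812-97646061, plus strand) holds the NRF1 core on the reverse strand and an ETS match, a second one not lying wholly within these bases. COX7A2L has 2 starts in the table, and neither promoter holds any of the 5 motifs; the one of the inner start (chr2:42361218-42361467, minus strand) is printed.
COX5B: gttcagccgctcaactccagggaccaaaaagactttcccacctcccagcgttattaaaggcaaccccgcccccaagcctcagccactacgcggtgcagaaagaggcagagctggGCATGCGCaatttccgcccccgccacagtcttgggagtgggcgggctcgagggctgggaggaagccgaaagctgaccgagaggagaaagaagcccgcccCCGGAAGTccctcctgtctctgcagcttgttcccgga
COX7A2L: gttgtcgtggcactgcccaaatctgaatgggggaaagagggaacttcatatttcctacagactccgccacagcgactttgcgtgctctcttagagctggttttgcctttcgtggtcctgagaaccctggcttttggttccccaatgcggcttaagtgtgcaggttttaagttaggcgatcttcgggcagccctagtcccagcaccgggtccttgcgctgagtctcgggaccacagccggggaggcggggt

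**Figure D3:**
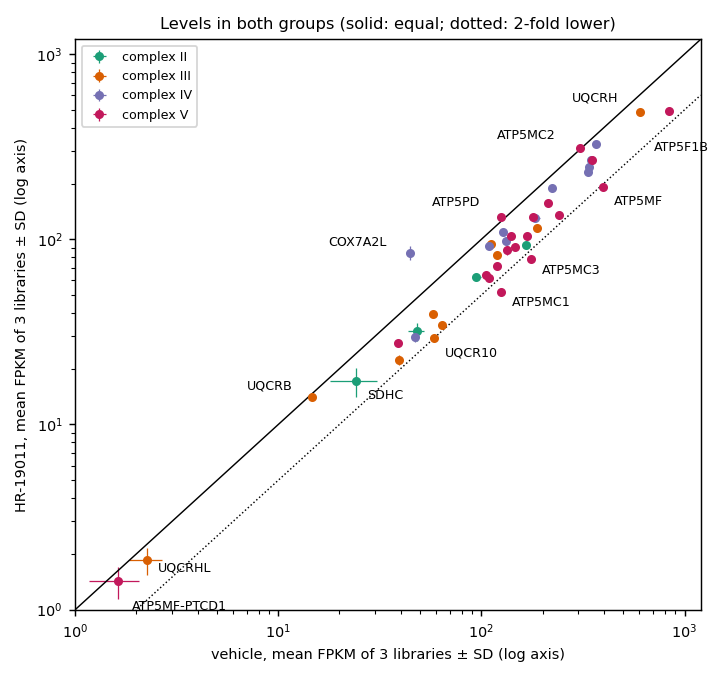
Mean FPKM of each tested subunit gene in vehicle (x) and HR-19011 (y), both log axes, with SD over 3 libraries; the solid line marks equal levels and the dotted line 2-fold lower ones. Most genes lie between the lines, COX7A2L lies above at 44.3 and 84.5 FPKM, and ATP5MC1, ATP5MC3 and ATP5MF lie just under the dotted line.

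Complex V had 16 of its 19 tested members lower, the 3 lowest log2 fold changes of all members among them, and 3 not called. Over all tested genes the share called lower was 38%. In the F1 head and its stalk, where ATP is made, all 5 genes fell. ATP5F1B, the catalytic beta subunit and the highest of all members, went from 835 ± 8.33 to 492 ± 12.4 FPKM (SD, n = 3), 1.70-fold. ATP5F1A, its alpha partner, fell 1.36-fold, from 212 ± 6.31 to 156 ± 4.86 FPKM. The stalk genes ATP5F1C, ATP5F1D and ATP5F1E (gamma, delta and epsilon) fell 1.37-fold, 1.66-fold and 1.41-fold. ATP5IF1, the inhibitor that blocks ATP hydrolysis by the head, was at 159, 170 and 174 FPKM and then at 99.8, 106 and 106, a change of -0.68 (SE 0.0402). Among the accessory subunits of the membrane part, all 5 tested genes fell. ATP5MF (subunit f, chromosome 7, 99458195 to 99466167) was at 398, 407 and 385 FPKM and then at 190, 192 and 194, a change of -1.04 (SE 0.0266, adjusted p = 1.75e-09 in limma). ATP5ME (subunit e), ATP5MPL, ATP5MD and ATP5MG (subunit g) fell 1.77-fold, 1.64-fold, 1.53-fold and 1.33-fold. ATP5MF-PTCD1, a readthrough whose reads overlap those of ATP5MF, was at 1.11, 1.80 and 1.95 FPKM and then at 1.21, 1.31 and 1.74, not called (-0.11, adjusted p = 0.472 in limma). It was called lower after quantile normalization (-0.50) and without vehicle 1 (adjusted p = 0.0467 in limma). ATP5MGL was at most 0.0430 FPKM in any library and was not tested.

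In the peripheral stalk, which holds the head still against the turning rotor, 3 of 4 genes fell, beside 38% of all tested genes. ATP5PF (subunit F6), ATP5PB (subunit b) and ATP5PO (OSCP, the cap of the stalk) fell 1.76-fold, 1.61-fold and 1.32-fold. ATP5PD, subunit d (chromosome 17, 75038863 to 75046969), was at 124, 120 and 129 FPKM in vehicle and 135, 132 and 128 in HR-19011. These values overlap, and the difference was not called (log2 fold change 0.08, SE 0.0333, adjusted p = 0.0546 in limma). It was called higher in 5 of 16 alternatives, among them without vehicle 3 (adjusted p = 0.0228) and without HR-19011 3 (0.0352), and called lower after TMM scaling, at -0.16.

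The genes of the rotor ring did not move together: 2 of the 3 fell, beside 38% of all tested genes. ATP5MC1, ATP5MC2 and ATP5MC3 encode the same mature c subunit, the proton-carrying unit of the ring, behind different import sequences. ATP5MC1 (chromosome 17, 48892787 to 48895871) was at 124, 125 and 124 FPKM in vehicle and 50.6, 50.3 and 55.3 under HR-19011, changing by -1.24 (SE 0.0382, limma adjusted p = 4.99e-09). ATP5MC3 (chromosome 2, 175176258 to 175181710) was at 179, 175 and 174 FPKM and then at 80.1, 76.6 and 76.6, a change of -1.17 (SE 0.0276). These were the lowest log2 fold changes of all members. ATP5MC2 (chromosome 12, 53665170 to 53681423), the highest of the 3, was at 302, 301 and 314 FPKM and then at 313, 307 and 314. Its groups overlap, and its change was not called (0.03, 95% interval -0.03 to 0.08, adjusted p = 0.353 in limma); it was called higher after conversion to TPM (0.15) and quantile normalization (0.09) and lower after TMM scaling (-0.22). Summed over the 3 genes, c subunit RNA went from 606.2 ± 5.51 to 441.0 ± 6.47 FPKM, 1.37-fold. The share of ATP5MC2 in that sum was 49.9%, 50.03% and 51.3% in vehicle and 70.5%, 70.7% and 70.4% in HR-19011. The shares of ATP5MC1 and ATP5MC3 went from 20.5% ± 0.306 to 11.8% ± 0.536 and from 29.1% ± 0.566 to 17.6% ± 0.437 (SD, n = 3). A single scaling factor per library leaves these shares unchanged. Quantile normalization moves genes unequally and can change the shares, which were not computed under it. The exact permutation p of the shares was 0.1, the smallest possible. The sources used here do not state how multiply matching reads were assigned. Promoters of ATP5MC1 and ATP5MC2 are set side by side. No promoter was matched for ATP5MC3, so the c subunit genes cannot be compared as a set. The 250 bases of ATP5MC1 (chr17:48892537-48892786, plus strand) hold no match, its E-box lying after the start. ATP5MC2 has 3 starts, of which 2 hold the NRF1 core, and the one shown is the middle one (chr12:53676084-53676333, minus strand).
ATP5MC1: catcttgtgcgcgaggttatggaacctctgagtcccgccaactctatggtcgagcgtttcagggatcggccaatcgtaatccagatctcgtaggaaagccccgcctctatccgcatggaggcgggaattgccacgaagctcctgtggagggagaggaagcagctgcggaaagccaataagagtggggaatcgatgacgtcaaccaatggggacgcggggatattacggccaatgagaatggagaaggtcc
ATP5MC2: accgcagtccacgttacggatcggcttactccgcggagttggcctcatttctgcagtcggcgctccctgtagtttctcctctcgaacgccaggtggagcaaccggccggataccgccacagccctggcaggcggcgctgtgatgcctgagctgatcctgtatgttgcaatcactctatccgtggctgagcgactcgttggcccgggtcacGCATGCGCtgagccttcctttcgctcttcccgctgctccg

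**Figure D4:**
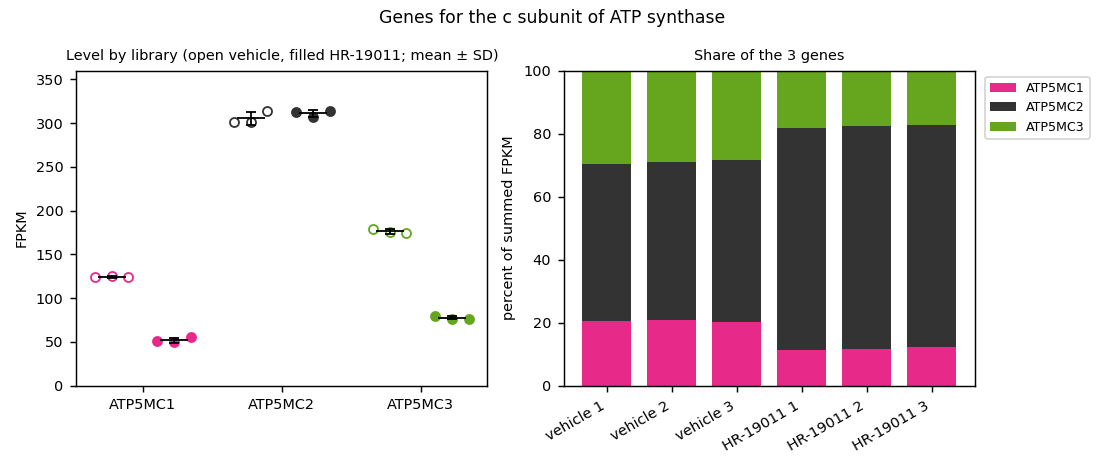
Left, FPKM of the 3 genes for the c subunit in each library (open vehicle, filled HR-19011, bars mean ± SD of 3 libraries); right, their shares of summed FPKM in each library. ATP5MC2 is at 306 and 311 FPKM (not called as deposited, called lower after TMM scaling, higher after TPM conversion and quantile normalization) while the other 2 genes drop, and its share goes from 50.4% to 70.6%.

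The mitochondrially encoded partners also fell. COX1, COX2 and COX3, the catalytic core of complex IV, changed by -0.79, -0.93 and -0.78, against a median of -0.38 for the nuclear subunits of that complex. The summed nuclear complex IV RNA was 6.54%, 6.87% and 6.44% of the sum of COX1, COX2 and COX3 in vehicle and 9.64%, 9.05% and 9.51% in HR-19011, without overlap (exact permutation p = 0.1). ATP6 and ATP8, the mitochondrial subunits of ATP synthase, changed by -0.83 and -0.84, and CYTB, the cytochrome b of complex III, by -0.17. The change of CYTB was close to that of COX4I1 (-0.16), whose call was lost after conversion to TPM. Calls of the mitochondrially encoded genes are given for the deposited scaling only. Cytochrome c itself (CYCS), which carries electrons from complex III to IV, was at 80.0, 70.9 and 72.9 FPKM and then at 39.0, 40.4 and 40.2. NDUFA4, a complex IV subunit outside the symbol rule, went from 61.8 ± 2.42 to 42.2 ± 1.26 FPKM.

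Assembly factors, which build the complexes without staying in them, were mixed: 32 of 45 fell, 6 rose and 7 were not called, with a median of -0.40, beside 38% lower and 46.4% higher among all tested genes. In complex III, 8 of 9 fell, led by UQCC4 (C16orf91 in the files), from 27.3 ± 0.682 to 8.31 ± 0.382 FPKM, while TTC19, which clears Rieske protein fragments, rose 1.46-fold. In complex IV, 19 of 26 fell, among them COA4 from 63.5 ± 1.5997 to 25.3 ± 0.924 FPKM, and 3 rose: COX19 1.82-fold, SURF1, which acts in COX1 maturation, 1.63-fold, and HIGD2A 1.16-fold. For HIGD2A that was a log2 fold change of 0.21, no larger than the -0.21 by which TMM scaling shifted the median of all tested genes. COX17, counted among those that fell, changed by -0.10, less than the 0.12 by which conversion to TPM moved that median. In complex V, 2 of 6 fell, near the share of all tested genes, including TMEM70, a c-ring assembly factor, 2.09-fold, and DMAC2L rose 1.403-fold. The groups overlapped for FMC1, the other complex V factor that fell (adjusted p = 0.0311 in limma). They also overlapped for COA1, counted among the complex IV factors that fell (adjusted p = 0.0437 in limma). In complex II, 3 of 4 fell, with SDHAF3 at 2.37-fold. SDHAF4, counted among the 6 that rose, went from 0.940 ± 0.353 to 1.899 ± 0.239 FPKM. Its vehicle mean lay below the filter of 1 FPKM, which it passed only through HR-19011, so its call is no support for a rise. Of 8 regulators known to act on respiratory genes, 7 were tested: 4 fell, 1 rose and 2 were not called, so that no more of them were called than among all tested genes (84.4%). NRF1 went from 8.06 ± 0.197 to 5.21 ± 0.188 FPKM, YY1 from 20.4 ± 0.464 to 13.5 ± 0.516, and the coactivator PPRC1 from 24.5 ± 0.702 to 10.9 ± 0.194. GABPB1, the partner of GABPA in GABP, went from 10.5 ± 0.278 to 9.17 ± 0.455 FPKM, a log2 fold change of only -0.18. PPARGC1B, another coactivator, rose from 6.16 ± 0.403 to 7.15 ± 0.244 FPKM, a log2 fold change of 0.19, smaller than that TMM shift. Calls of assembly factors and regulators are given for the deposited scaling only. GABPA, the DNA-binding part of GABP (0.10, adjusted p = 0.114 in limma), and the nuclear receptor ESRRA (-0.11, adjusted p = 0.107 in limma) were not called.

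Set beside related mitochondrial genes, the members were not alone in falling. Of 36 tested complex I subunits 34 fell and 2 rose, with a median of -0.45. Of 78 mitochondrial ribosomal protein genes 70 fell and 2 rose, with a median of -0.73. Among all tested genes 38% were called lower and 46.4% higher. The rises were small, with log2 fold changes of 0.27 and 0.31 in complex I and 0.21 and 0.22 among ribosomal protein genes. These calls are given for the deposited scaling only. The difference between the medians of these groups and that of the members was not tested.

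**Figure D5:**
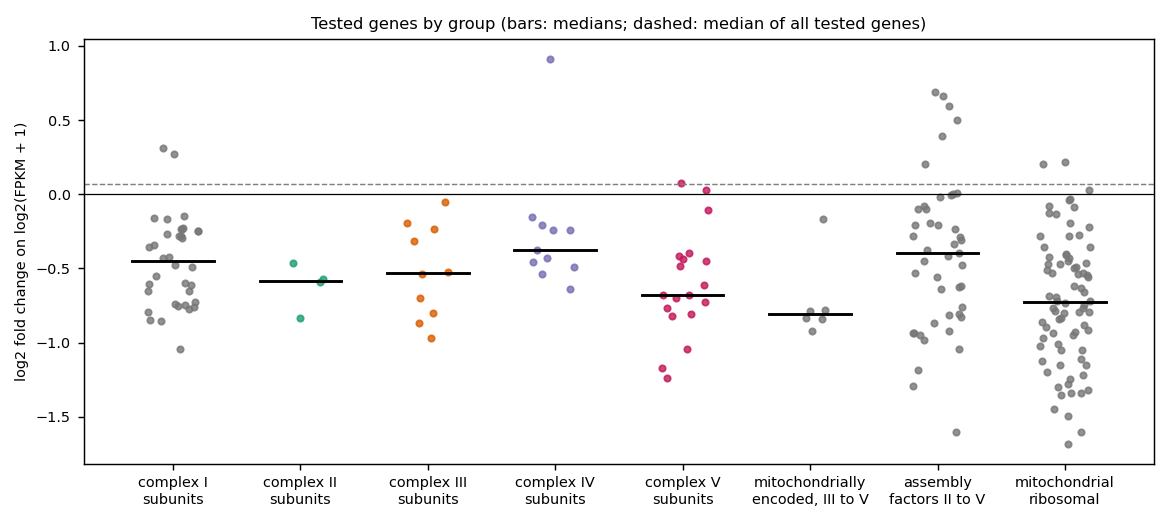
Log2 fold change of each tested gene (points) in 8 groups of mitochondrial genes, with group medians as bars, on log2(FPKM + 1). The groups' medians all lie below the dashed line, the median of all tested genes at 0.07, from -0.38 for complex IV to -0.81 for the mitochondrially encoded subunits of complexes III to V.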

How the data were processed

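Total RNA of 6 K562 libraries was extracted with TRIzol and messenger RNA made into stranded libraries, per the labels' protocols. The deposited values are FPKM per gene, per the file headers. GRCh38 and, among tools, StringTie 2.1.3b, HISAT2 2.1.0, SAMtools 1.9 and Trimmomatic 0.38 are listed, per the submitters' processing notes, with no role or order. Depth is unknown: low values showed no steps of whole reads (at most 2.27% of between-library ratios in any bin of 0.02 log2 units), so no count test was used. Pairs of libraries within a group shared at most 0.0208% identical values.

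Groups came from sample titles. The filter kept 11856 genes whose mean of all 6 libraries reached 1 FPKM. Their log2(FPKM + 1) values entered limma 3.58.1 under R 4.3.3 (group as the only term, mean-variance trend, two-sided, Benjamini-Hochberg adjustment, threshold 0.05). The pseudocount makes log2 fold changes of low genes too small. Folds without log2 are ratios of mean FPKM. Gene positions and promoters are RefSeq's (GRCh38.p14), matched by gene identifier; all 51 members had a position. The members and lists were chosen with earlier results of these data known. Values in every library were given for complex II and for the 3 lowest and 2 highest changes of the other complexes. They were also given for members not called or higher, for paralogs other than COX7B2, and for ATP5IF1. Deposited tables also hold 68 pseudogene rows with these symbol stems, not members, of which 2 had a mean of at least 1 FPKM.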

Additional observations from a re-analysis of the deposited data

How the results depend on the processing

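The number of members called lower, 38, lay between 36 and 42 in all alternatives, and no complex's median changed sign. Members called higher numbered 2 with a mean of at least 5 FPKM, 3 after conversion to TPM and 3 after quantile normalization, the additions being ATP5PD or ATP5PD and ATP5MC2. TMM scaling gave median log2 fold changes of -0.75 (all members), -0.82 (complex II), -0.77 (III), -0.62 (IV) and -0.92 (V). Conversion to TPM gave -0.39, -0.46, -0.41, -0.25 and -0.56, and quantile normalization -0.43, -0.43, -0.47, -0.28 and -0.51, in the same order. A pseudocount of 5 FPKM gave -0.50 for complex III and -0.66 for V, no filter -0.24 for IV and -0.65 for V, and equal totals without globin and mitochondrial genes -0.40 for IV and -0.70 for V. Changes of sign were found for ATP5MC2 (-0.22) and ATP5PD (-0.16) after TMM scaling and for UQCRB (0.065) after conversion to TPM. The median of all tested genes moved by -0.21, 0.12 and -0.13 under TMM, TPM and quantile settings, and the members' median lay at -0.61, -0.58 and -0.37 relative to it, against -0.58 as deposited. The gap was thus smaller after quantile normalization, and the cause was not tested.

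Leaving out each library in turn gave 37 to 39 members lower and 1 to 2 higher, medians of -0.53 to -0.51 for all members, -0.66 to -0.54, -0.54 to -0.51, -0.38 to -0.36 and -0.68 to -0.65 for complexes II to V, and a difference in the ATP5MC1 share of -9.02 to -8.52 percentage points. Over all tested genes, deviations of same-numbered libraries correlated at -0.03, -0.00448 and -0.11. These values cannot show whether the libraries were paired. With the replicate number as a block, 38 members were lower and 1 higher, and SDHC had an adjusted p = 0.000158 in limma. Depth is unknown, so limits for UQCRHL, ATP5MF-PTCD1, SDHAF4 and genes under 1 FPKM cannot be set.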

Other observations

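The 2 pseudogene rows above 1 FPKM were COX6A1P2, which went from 5.95 ± 0.301 to 4.14 ± 0.317 FPKM (vehicle to HR-19011, SD, n = 3), and UQCRFS1P1, which went from 6.325 ± 0.359 to 3.42 ± 0.0732. Each ran in the direction of its parent gene, and whether their reads come from the parents was not tested. Across the 44 tested members, the vehicle level and the log2 fold change had a Spearman correlation of -0.06, given as a description of genes that share libraries.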
